A study of Mus musculus with 4 samples.

Results

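Barcodes carrying the angiotensin-converting enzyme transcript Ace or the ribonuclease transcript Ear2 were examined among white blood cells of the mouse pancreas. Members were chosen by these counts themselves: a barcode had to hold at least 2 UMIs of Ace and Ear2 together. It also had to hold fewer than 5 UMIs of the macrophage complement genes C1qa, C1qb and C1qc, and none of the dendritic cell genes Xcr1 and Clec9a or of the T cell genes Cd3d, Cd3e and Cd3g. The rule found 165 members among 10794 kept pancreas barcodes. There were 88 members among 4168 barcodes of the control library and 77 among 6626 of the CD4-Cre library. A UMI is a molecular tag that counts one captured transcript. Barcodes were kept when 500 or more genes were seen and mitochondrial genes gave no more than 10% of UMIs. The rule's limit lay between 10 and 20 otherwise eligible barcodes of the control and CD4-Cre libraries with 1 UMI of Ace and Ear2, and 3 and 6 members with 2.

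The study compared pre-diabetic female mice carrying floxed alleles of Ocab (Ocabfl/fl, the control) with mice that carried CD4-Cre in addition (Ocabfl/fl.CD4-Cre). Ocab, now named Pou2af1, encodes a coactivator of the Oct transcription factors, and Cre under the Cd4 promoter is known to act mainly in T cells. At 12 weeks of age the CD45+ cells of the pancreas were sorted, with 4 mice pooled into each library. T cells of the pancreatic lymph node, at 8 weeks with 5 mice pooled, formed the other pair of libraries. All groups were female and carried the floxed alleles, and the labels used here do not name the strain.

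In the mouse, the blood holds classical monocytes, marked by Ly6c2 and Ccr2, and nonclassical monocytes, which crawl along the inner wall of vessels and depend on the nuclear receptor Nr4a1. Nonclassical monocytes are known to carry Ace, which cuts angiotensin I to angiotensin II, and Ear2, a secreted member of the ribonuclease A family. Retnla, which recurs below, encodes a small secreted protein known from macrophages and induced by interleukin-4 through STAT6.

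The pancreas libraries held 20807342 and 32798133 UMIs, with a median of 3656 and 3680 UMIs per kept barcode. Members had a median of 6866 UMIs in the control library and 6426 in the CD4-Cre library. There was 1 library in each group, so no test between genotypes was possible, and every interval covers counting error only. None of the 2918 and 5645 kept lymph node barcodes met the rule, which allows a share of up to 0.103% and 0.0531%, but those cells had been selected for CD3. The pancreas libraries shared 46 barcode sequences, and no member was found in both.

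The Ear2 count needs its sequence context, because the genome holds similar copies of the gene in the same region of chromosome 14. Ear2 lies at chr14:44102654-44103534, Ear1 at chr14:43818765-43875517 and Ear10 at chr14:43922720-43923559 (GRCm38). Over their main transcripts, Ear1 matched Ear2 at 96.0% of aligned positions and Ear10 at 89.0%. Of the 91-base stretches of Ear2, 1.43% also occurred in Ear1 and 15.1% in Ear10, so counts of the 3 genes are uncertain where reads could be split. Members held 999 and 798 Ear2 UMIs in the control and CD4-Cre libraries, against 40 and 54 of Ear1 and 64 and 39 of Ear10. No Ear6 UMI was found in the members.

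The 250 bases before the start of each transcript are shown for Ear2 (chr14:44102404-44102653, plus strand), its copies Ear1 (chr14:43819640-43819889, minus strand) and Ear10 (chr14:43923597-43923846, minus strand) and Retnla (chr16:48842359-48842608, plus strand), from RefSeq on GRCm38.p6. These are the copies that share the counting problem and the gene that divides the members. Capitals mark matches to 3 motifs searched on both strands, named after the factors that bind them: C/EBP (TTGCNNAA), PU.1 (GAGGAAGT) and STAT6. None of the matches overlapped. Motifs of Oct, Nr4a and KLF factors were also searched and had no match in any gene searched.
Ear2: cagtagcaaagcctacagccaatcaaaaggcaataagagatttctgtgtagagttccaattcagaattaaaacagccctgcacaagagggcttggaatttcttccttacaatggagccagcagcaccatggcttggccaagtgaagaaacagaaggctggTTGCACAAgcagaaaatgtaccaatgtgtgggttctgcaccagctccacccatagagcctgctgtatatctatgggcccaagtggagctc
Ear1: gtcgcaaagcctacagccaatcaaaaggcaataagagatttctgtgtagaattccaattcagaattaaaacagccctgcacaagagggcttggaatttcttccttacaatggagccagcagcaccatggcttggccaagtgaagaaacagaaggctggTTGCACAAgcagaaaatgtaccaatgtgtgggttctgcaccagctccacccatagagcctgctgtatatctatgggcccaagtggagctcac
Ear10: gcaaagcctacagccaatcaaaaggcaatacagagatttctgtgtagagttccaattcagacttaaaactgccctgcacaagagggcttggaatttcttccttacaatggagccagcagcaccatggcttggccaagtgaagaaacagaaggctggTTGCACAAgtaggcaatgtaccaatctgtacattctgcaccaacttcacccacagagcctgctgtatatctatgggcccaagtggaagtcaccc
Retnla: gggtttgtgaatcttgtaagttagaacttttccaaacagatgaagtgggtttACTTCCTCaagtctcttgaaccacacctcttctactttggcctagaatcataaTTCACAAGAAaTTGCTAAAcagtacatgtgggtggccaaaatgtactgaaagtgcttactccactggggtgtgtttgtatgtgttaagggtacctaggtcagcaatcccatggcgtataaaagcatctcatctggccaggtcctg
The C/EBP letters began 90 bases before the start in Ear2, 92 in Ear1 and 94 in Ear10, and 134 in Retnla. Retnla also held the PU.1 letters, on the minus strand 198 bases before the start, and the STAT6 letters at 145. Among 32851 RefSeq promoter windows of 300 bases, 10.8% held the C/EBP letters, 3.20% the PU.1 letters and 6.95% the STAT6 letters. Neither promoter window of Ace held any motif searched, and nor did those of Treml4, Pou2f2, Nr4a1 and Fcrls. Lyz1 held the C/EBP letters. A match describes the letters only.

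Whether the members formed one kind of cell was examined first. They did not. Ace UMIs were present in 45 of 88 members of the control library and 36 of 77 of the CD4-Cre library. Ear2 UMIs were present in 87 of 88 and 75 of 77, with a median of 10 and 7 per member and a highest value of 76 and 77. Among the 84 members without Ace, 62 held at least 3 Retnla UMIs, and 61 of these held at least 10. In the control library the 32 such members ranged from 10 to 1054 Retnla UMIs, with a median of 239.5. In the CD4-Cre library the 30 such members ranged from 3 to 1395, with a median of 348.5. Of the 81 Ace-positive members, 79 held no Retnla UMI and the other two held 1 each.

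Members with an Ace UMI are called Ace-positive below, members without Ace and with at least 3 Retnla UMIs are called Retnla-positive, and the remaining 22, 11 in each library, are called the members with neither gene. The Retnla limit was set after its values had been seen, and the sets are a description of these barcodes, with no test. Ace-positive members were the shallower ones. They had a median of 4738 and 4666 UMIs, against 10204 and 11350 in members without Ace. In B cells of the same libraries, which should lack these genes, Retnla was seen in 2.02% and 2.24% of barcodes with at most 2 and 3 UMIs. Ear2 was seen in 0.112% and 0% of those B cells, and Ace in 0% and 0.0771%, at median depths of 3554 and 3408 UMIs.

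**Figure D1:**
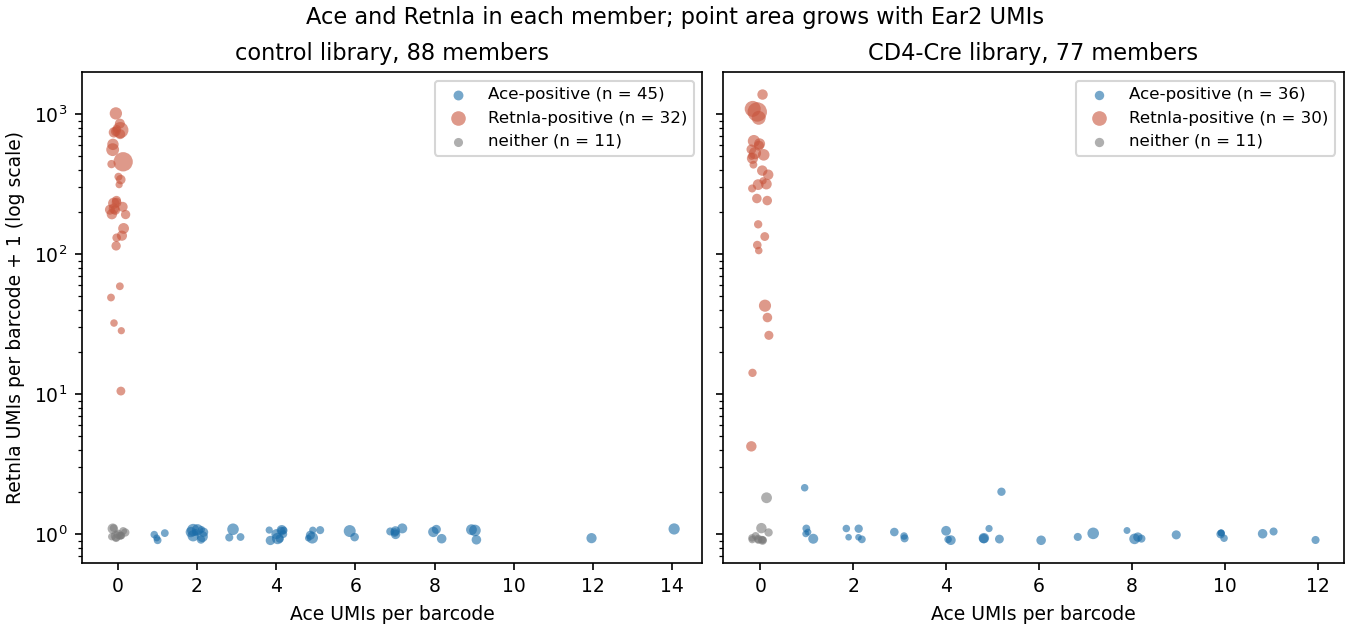
Ace UMIs (x axis) against Retnla UMIs plus 1 (y axis, log scale) for each of the 165 members, by library; small random shifts separate overlapping points and point area grows with Ear2 UMIs. Points lie along one axis or the other: no member held both an Ace UMI and more than 1 Retnla UMI.

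Most Ace-positive members carried the genes known from nonclassical monocytes. The exceptions include 1 member of each library with no Lyz2, Csf1r, Treml4 or Ear2 UMI. The one in the control library held 90 UMIs of Ly6a, 63 of Igfbp6 and 309 of Gsn, and the one in the CD4-Cre library held 24 UMIs of an endothelial cell list, 12 of them of the vascular receptor gene Kdr. Treml4, a receptor of the TREM family, was present in 36 of 45 and 29 of 36 of them, at 520 and 546 CPM (UMIs scaled to 1000000 summed UMIs of the set). No Treml4 UMI was found in the 62 Retnla-positive members, which allows a share of barcodes with a UMI of up to 4.84% and does not limit the share of cells that express the gene. After thinning each barcode to 2000 UMIs, which left out 4 and 2 Ace-positive and 2 and 0 Ace-zero members, Treml4 was seen in 75.6% and 58.8% of Ace-positive members and in 2.44% and 2.44% of those without Ace. Cd300e, an activating receptor of monocytes, stood at 223 and 279 CPM in Ace-positive members and at 0 in Retnla-positive ones. The integrin Itgal, used for crawling on vessel walls, stood at 511 and 711 CPM against 8.38 and 2.51 CPM.

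The genes of transcription followed the same split. Nr4a1, on which nonclassical monocytes depend, stood at 1202 and 1422 CPM in Ace-positive members and at 168 and 72.8 CPM in Retnla-positive ones, where 2 barcodes of the control library held 20 and 18 of 60 UMIs. Pou2f2, which encodes Oct2, one of the Oct factors that Ocab can bind, stood at 1329 and 1166 CPM against 19.6 and 22.6 CPM. Cebpb, a factor of monocyte survival, stood at 4144 and 4216 CPM against 746 and 449 CPM. Of 23 genes tested from a nonclassical monocyte list without Ace and Ear2, 21 were at least 2-fold higher in Ace-positive than in Ace-zero members in both libraries and 0 were that much lower. Among all 3676 genes tested in that contrast, 9.66% were higher by this measure and 6.96% lower. The median log2 ratio of the list was 3.91 in the control library and 3.77 in the CD4-Cre library, beside 0.09 and 0.17 over all genes.

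The Retnla-positive members carried another set of genes. Retnla itself stood at 31584 and 31568 CPM. Lyz1, a lysozyme gene next to Lyz2, was present in 28 of 32 and 25 of 30 of them, at 11484 and 8798 CPM, and in 1 and 2 of the Ace-positive members. Fn1, encoding fibronectin, was present in all 62, at 3752 and 3445 CPM against 122 and 62.6 CPM in Ace-positive members (23.2 and 63.2 CPM without the 2 members that had no Lyz2 UMI). Fcrls, an Fc receptor-like gene, stood at 1394 and 1543 CPM and was found in no Ace-positive member. Mrc1, the mannose receptor, was at its highest in this set (363 and 248 CPM). Ccr2, the receptor for Ccl2, stood at 794 and 650 CPM, close to the members with neither gene, and the lectin gene Mgl2 at 265 and 384 CPM.

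Antigen presentation divided the members in the same way. H2-Ab1, a chain of the MHC class II molecule, was present in all 62 Retnla-positive members, at 6985 and 7990 CPM, and stood at 389 and 455 CPM in Ace-positive members. After thinning, H2-Ab1 was seen in 17.1% and 14.7% of Ace-positive members and in 85.4% and 82.9% of Ace-zero members. All 8 MHC class II list genes that could be tested were at least 2-fold lower in Ace-positive than in Ace-zero members in both libraries. Over all 3676 genes tested in that contrast, 6.96% were that much lower. The median log2 ratios of the list were -3.59 and -3.13. The Retnla-positive members were low in the nonclassical monocyte markers and are named by their leading gene only. Pglyrp1, a secreted antibacterial protein, was still present in 6 of 32 and 11 of 30 of them, at 78.2 and 70.3 CPM against 1049 and 978 CPM in Ace-positive members. Flt3, a dendritic cell gene, was at 0 in them, Cd209a was present in 19 of 62, Timd4 was at 0 and C1qa, limited by the rule, was near 0.

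The Retnla-positive members did not end at the limits of the rule. Among kept barcodes, 123 in the control library and 170 in the CD4-Cre library held at least 10 Retnla UMIs, and 76 and 115 of these held at least 2 Ear2 UMIs. Of the latter, 32 and 29 were members. The C1q limit kept out 37 and 66, and Cd3 UMIs kept out 16 and 42, with some barcodes counted under both. Among other Lyz2-positive barcodes, 66 of 243 and 93 of 242 held at least 3 Retnla UMIs, and 2 and 6 held an Ace UMI. The rule itself limited these Ace counts. Any such barcode with 2 Ace UMIs became a member unless its C1q, Xcr1 or Clec9a UMIs kept it out.

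The 22 members with neither gene were mixed. Lyz2, which was not part of the member rule, stood at 30966 and 26661 CPM in them, against 12507 and 12686 CPM in Ace-positive and 20344 and 22123 CPM in Retnla-positive members. Chil3, a secreted chitinase-like protein of classical monocytes, was present in 10 of these 22, in 8 of 81 Ace-positive and in 0 of 62 Retnla-positive members. In the control library 1 barcode held 63 of the 78 Chil3 UMIs of this set. Ly6c2 stood at 287 and 86.4 CPM and Plac8 at 2064 and 1864 CPM, and Ccr2 was present in 9 and 10 of the 11 members of each library. Of the nonclassical genes, Pou2f2 (396 and 235 CPM) and Cx3cr1 (287 and 160.5 CPM) lay between the other 2 sets. Pglyrp1 (27.3 and 61.7 CPM) rested on 2 and 5 UMIs. It was below the level of Ace-positive members, and its intervals overlapped those of Retnla-positive members. In the CD4-Cre library, 2 of these members held 24 and 12 UMIs of the dendritic cell gene Cd209a with 141 and 94 of H2-Ab1. With 11 barcodes in each library, these levels rest on 73176 and 81018 UMIs.

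**Figure D2:**
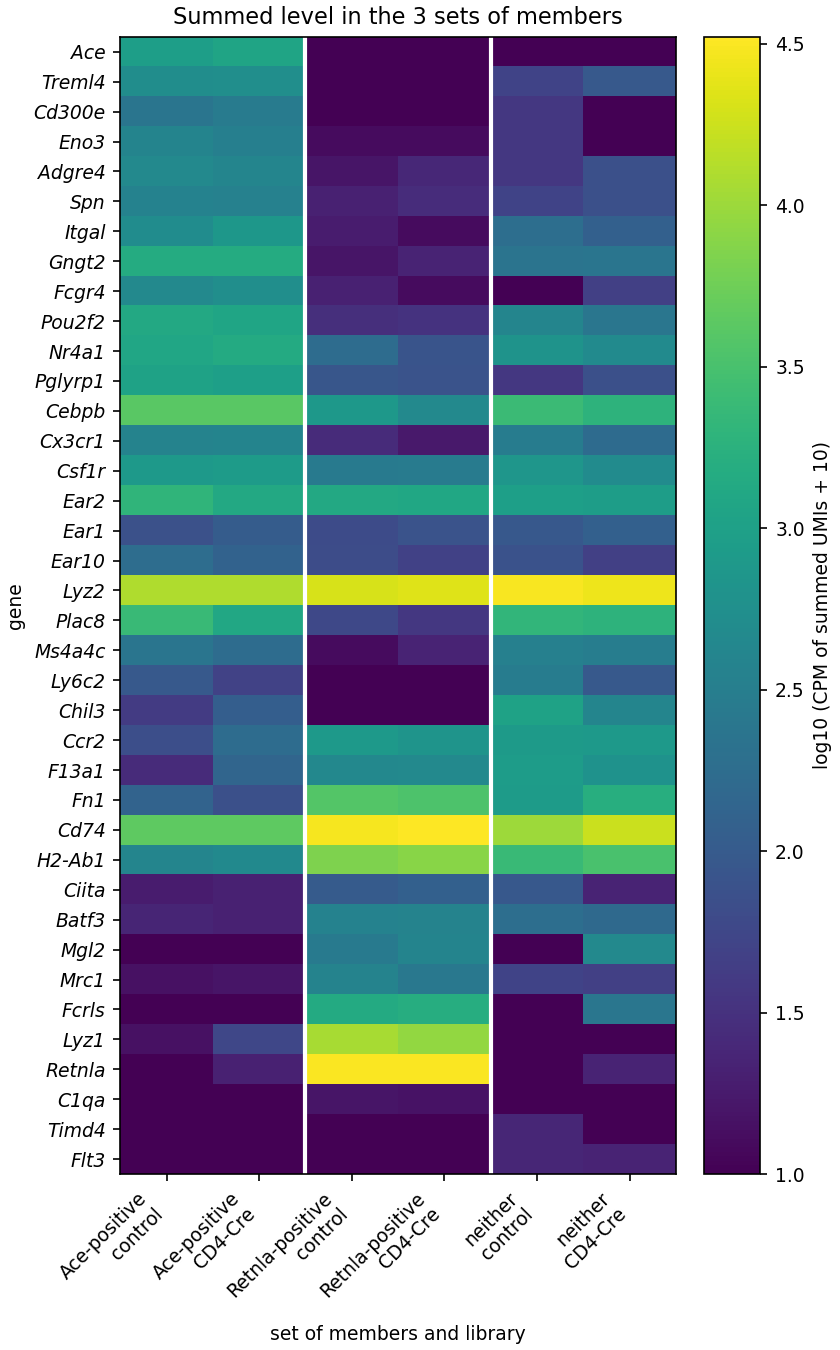
Level of 38 genes (rows) in the Ace-positive, Retnla-positive and remaining members of each library (columns), as log10 of CPM of summed UMIs plus 10. Ace and Retnla set the columns and are shown as a description; Treml4 to Cx3cr1 are brightest in the Ace-positive columns and Cd74, H2-Ab1, Lyz1 and Retnla in the Retnla-positive ones, in both libraries.

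Members were then set against other Lyz2-positive barcodes of the same library, which had at least 5 Lyz2 UMIs and no Cd3 UMI. There were 243 and 242 of these, among them 106 and 92 barcodes with the C1q genes, 37 and 64 with Xcr1 or Clec9a, 50 and 21 with a neutrophil profile, 12 and 16 with a classical monocyte profile and 30 and 31 with Flt3 or Cd209a. Ace stood at 327 and 299 CPM in members and at 2.60 and 8.17 CPM in the others, and Ear2 at 1514 and 1218 CPM against 287 and 391 CPM; the rule chose both. Of 8271 genes tested, 151 (1.83%) were at least 2-fold higher in members in both libraries and 360 (4.35%) at least 2-fold lower. Of the 23 nonclassical monocyte genes, 15 were higher and 0 lower, with median log2 ratios of 1.81 and 2.03, beside 0.06 and 0.04 over all genes.

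The 15 genes with the highest ratios are given by what they encode, receptors first. Cd300e stood at 80.3 and 74.8 CPM in members and at 1.73 and 0.743 CPM in the others, a log2 ratio of 5.54 (95% interval 4.10 to 7.46) in the control library and 6.65 (4.72 to 9.74) in the CD4-Cre library. Treml4 followed at 4.15 (3.51 to 4.85) and 3.30 (2.77 to 3.85). Adgre4, an adhesion receptor, had ratios of 3.62 and 2.34, and the adhesion molecule Ceacam1 2.88 and 2.57. Fcgr4, an activating receptor for IgG, had ratios of 1.81 and 2.19, and Cd300ld of 2.11 and 2.43. Eno3, a muscle-type enolase, had ratios of 3.04 and 2.85. Nr4a1 (2.49 and 2.03) and Pou2f2 (2.44 and 2.17) were the factors among them, with Cebpe at 1.93 and 1.87. Nxpe4, Slc44a2, Zfyve9, Gm9733 and Chil3 completed the group.

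Cebpe and Chil3 were not highest in the Ace-positive members. Cebpe stood at 137 and 153 CPM in Retnla-positive members and at 4.37 and 11.4 CPM in Ace-positive ones. Chil3 rested on 6 and 12 members and was highest in the members with neither gene. The 15 genes with the lowest ratios included the neutrophil genes S100a8, S100a9, Retnlg, Lcn2 and Stfa2l1. Among them were also the macrophage genes Pf4, Stab1, Ms4a7 and Ccl8, and the dendritic cell genes Flt3 and Fscn1. Ccl5, Cxcl16, H2-M2 and Fxyd2 were the others. Barcodes that the rule kept out for their C1q, Xcr1 or Clec9a UMIs stayed in the comparator. Low macrophage and dendritic cell genes in members were thus partly set by the rule and are described only. S100a8 and S100a9 depended on the comparator, and stood higher in members when the barcodes with the C1q genes or a classical monocyte profile replaced it. In the control library 3 barcodes held 98.7% of the S100a8 and 99.2% of the S100a9 UMIs of the members, and in the CD4-Cre library 1 barcode held 11 of 13 and 54 of 55.

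**Figure D3:**
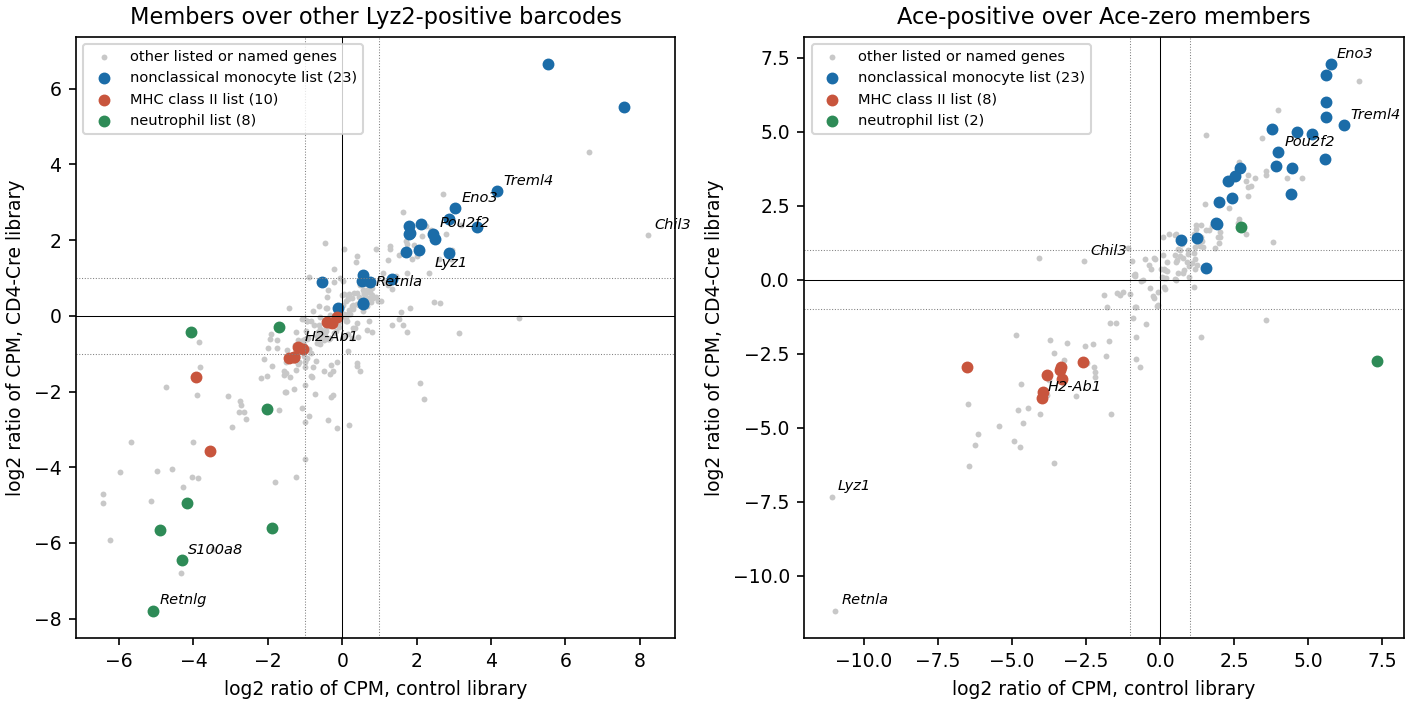
Log2 ratio of CPM in the control library (x axis) and the CD4-Cre library (y axis) for listed and named genes, for members over other Lyz2-positive barcodes (left) and Ace-positive over Ace-zero members (right); each point is 1 gene and dotted lines mark a 2-fold difference. Nonclassical monocyte genes lie mostly in the upper right of both panels, and the MHC class II genes tested on the right panel all lie in its lower left.

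The families around the 2 marker genes were examined next. Of 19 genes of the renin-angiotensin system, 6 other than Ace could be tested, and none was 2-fold higher or lower in members in both libraries. Over all genes 1.83% were higher and 4.35% lower, so none of 6 is near what all genes show. Agt, Ren1, Agtr2 and Mas1 were at 0 in the members of both libraries. In the ribonuclease A family, Ear1 and Ear10 were higher in members, with Ear1 at 60.6 and 82.4 CPM against 15.1 and 27.5 CPM in the others and Ear10 at 97.0 and 59.5 CPM against 12.5 and 17.8 CPM. Rnase6 had ratios of 0.15 and -0.49. The eosinophil genes Epx, Prg2, Prg3, Ccr3 and Il5ra were at 0 in all members, although Ear2 was first known from eosinophils. The whole list of 9 eosinophil genes held 46 and 58 UMIs in members, of which Ear1 gave 40 and 54. It stood at 69.7 and 88.5 CPM, against 20.3 and 31.2 CPM in the others. Pou2af1, the floxed gene, had 1 and 6 UMIs in the members of the control and CD4-Cre libraries, too few to compare.

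Receptors for movement and adhesion varied among the members. S1pr5, a receptor for egress from tissue into blood, had log2 ratios of 6.64 (4.72 to 9.72) and 4.32 (3.21 to 5.63) over the other Lyz2-positive barcodes, and was seen in 34.1% and 33.8% of members. Cx3cr1, the fractalkine receptor of nonclassical monocytes, had ratios of only 0.56 and 0.35 in that contrast, and of 2.53 and 3.51 in Ace-positive over Ace-zero members. Ccr2 had ratios of 0.29 and 0.25 over the others and of -3.70 and -2.03 in the contrast inside the members. Of 14 adhesion genes, 5 were at least 2-fold higher in members in both libraries and 1 was that much lower. Over all genes the shares were 1.83% and 4.35%. The higher adhesion genes included Spn (2.88 and 1.67) and Itgam (1.45 and 1.07).

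Sensors, ligands and presentation genes were counted against the same background of 1.83% higher and 4.35% lower, so that few or no higher genes in such short lists are near what all genes show. Of 14 pattern recognition receptors tested, 1 was higher, Tlr7, the sensor of single-stranded RNA, with ratios of 2.15 and 2.11, and 2 were lower. Of 19 myeloid chemokine and cytokine ligands, 0 were higher and 8 lower. Of 21 interferon response genes, 0 were higher and 5 lower. Of 10 MHC class II genes, 0 were higher and 5 lower, with medians of -1.23 and -0.98. Against the classical monocyte profile alone these medians were -1.003 and -0.32. The comparator held the barcodes that the rule kept out of the members for C1q, Xcr1 or Clec9a UMIs. The counts of lower genes are therefore not independent of the rule. Lipid genes were mixed: Fabp4 had ratios of 7.56 and 5.53, Pparg of 2.60 and 1.51 and Lpl of 1.52 and 1.61, while Apoe had -3.07 and -2.13. Inside the members, Fabp4 (5.61 and 6.91) and Pparg (2.98 and 2.81) were higher in Ace-positive than in Ace-zero ones, and Lpl was lower (-3.57 and -6.21).

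Genes of other cell types were counted in the members because a droplet can hold 2 cells or free RNA. At least 10 UMIs of a B cell list were found in 5 and 4 members, and at least 10 of a neutrophil list in 3 and 1. In the control library all 3 of the latter were Ace-positive. T cell and NK cell lists reached at most 1 UMI in any member, and the basophil and erythroid genes were at 0. Endothelial genes stood at 25.8 and 71.7 CPM in members and 16.0 and 13.01 CPM in the others, and inside the members at 69.9 and 250.3 CPM in Ace-positive and 2.32 and 6.26 CPM in Ace-zero ones. Pecam1, an adhesion gene that monocytes also carry, gave all 17 of their UMIs in the control library and 26 of 47 in the CD4-Cre library. Without the 2 Ace-positive members that had no Lyz2 UMI, the Ace-positive values were 74.3 and 114.9 CPM. Exocrine pancreas genes stood at 877 and 417 CPM in members, and within them at 511 and 182 CPM in Ace-positive and 1266 and 600 CPM in Retnla-positive members. In other Lyz2-positive barcodes they stood at 1412 and 1018 CPM, and in B cells at 292 and 435 CPM. Their part in the results was not tested. Simulated doublet scores would have removed 6 and 2 members, and without them the share difference given below was -0.838 points.

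The share of members was lower in the CD4-Cre library. It was 2.11% of kept barcodes (exact interval 1.70 to 2.59%) in the control library and 1.16% (0.918 to 1.45%) in the CD4-Cre library, a difference of -0.949 percentage points (-1.48 to -0.461). Of members and other Lyz2-positive barcodes together, members formed 26.6% (21.9 to 31.7%) and 24.1% (19.5 to 29.2%), a difference of -2.45 points whose interval (-9.10 to 4.25) includes 0. Other Lyz2-positive barcodes were thus also a smaller part of the CD4-Cre library, 242 of 6626 against 243 of 4168. A share of sorted cells cannot tell fewer cells of this kind from more cells of another.

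The sets inside the members were set side by side in the same way. Ace-positive members formed 1.08% (0.789 to 1.44%) of kept barcodes in the control library and 0.543% (0.381 to 0.751%) in the CD4-Cre library, a difference of -0.536 points (-0.928 to -0.194). Retnla-positive members formed 0.768% and 0.453%, a difference of -0.315 points (-0.657 to -0.0199). Of the members themselves, 51.1% and 46.8% were Ace-positive, and the interval of that difference (-19.2 to 10.7 points) includes 0. For Retnla-positive members the values were 36.4% and 39.0% (-11.9 to 17.1 points).

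**Figure D4:**
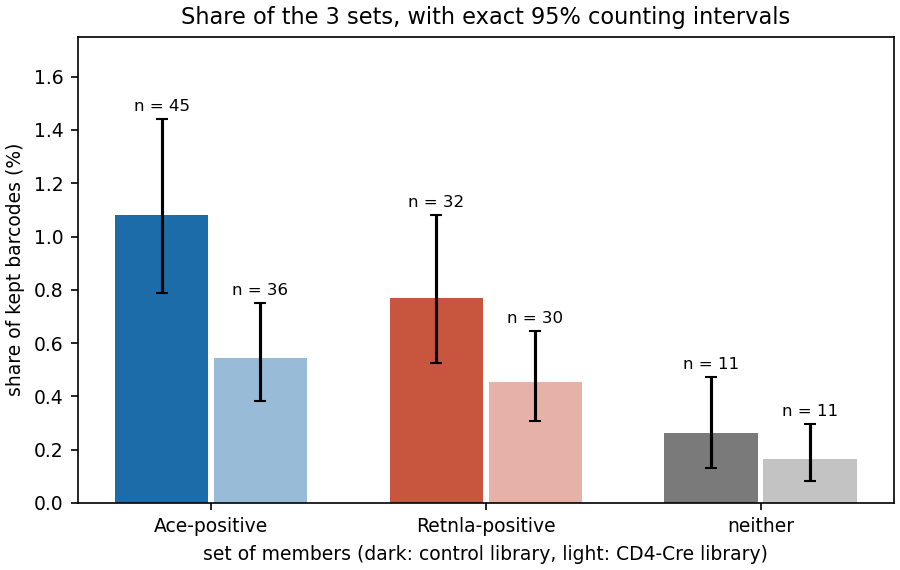
Share of kept barcodes (y axis, percent) taken by each set of members in the control library (dark bars) and the CD4-Cre library (light bars), with exact 95% intervals that cover counting error only and the number of members above each bar. The bar of each set is lower in the CD4-Cre library, and the intervals of the Ace-positive bars do not overlap.

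Few genes of the members passed a 2-fold difference between the 2 libraries. Of 6190 genes with at least 20 UMIs, 2.55% were at least 2-fold higher and 2.96% at least 2-fold lower in the CD4-Cre library, and the median log2 ratio of all of them was -0.01. The nonclassical monocyte list had a median of -0.25, with 20 of 23 genes below 0 and 0 past 2-fold in either direction. In the other Lyz2-positive barcodes the median of 21 of these genes was -0.34, so the shift was not particular to the members. Within the Ace-positive members the median was 0.07, with 13 of 23 above 0. Ace-positive members supplied 34.7% of member UMIs in the control library and 26.8% in the CD4-Cre library, and Retnla-positive members 54.2% and 60.8%. Pou2f2 had a ratio of -0.54 (-0.78 to -0.29) over all members and -0.19 (-0.45 to 0.07) in the Ace-positive ones.

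The MHC class II genes were slightly higher in the CD4-Cre library. All 8 genes tested lay above 0 over all members, with a median log2 ratio of 0.30, and all 8 lay above 0 within the Retnla-positive members, with a median of 0.16. In the other Lyz2-positive barcodes the median was 0.09. H2-Ab1 stood at 4192 and 5384 CPM over all members and at 6985 and 7990 CPM in Retnla-positive members, where its ratio was 0.19 (0.12 to 0.27). Retnla, which chose that set, stood at 31584 and 31568 CPM in it. The marker Ear2, whose counts helped to choose the members, is described only. It was lower in the CD4-Cre library within Ace-positive members, at -0.62 (-0.85 to -0.39). Its ratio within Retnla-positive ones was -0.07 (-0.26 to 0.11). Plac8 was also lower in Ace-positive members, 2396 against 1286 CPM, a ratio of -0.90 (-1.13 to -0.67). Nr4a1 had a ratio of 0.24 (-0.01 to 0.49) within Ace-positive members. The interferon list had a median of -0.37 over all members, of -0.01 in Ace-positive ones and of -0.45 in the other Lyz2-positive barcodes. All 8 pattern recognition receptors tested lay below 0 over all members, with a median of -0.91, and of -0.93 in the other Lyz2-positive barcodes. Exocrine genes, at 877 and 417 CPM, were lower in the CD4-Cre members in 9 of 9 cases, with a median of -1.34. Their median was -0.40 in the other Lyz2-positive barcodes, and their part in these differences was not tested.

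The genes named for the largest differences mostly rested on few barcodes. The ratios were highest for Odc1 (2.25), Cd63 (1.84), Plp2 (1.81), Dcstamp (1.63), Ccl2 (1.59), Mmp19 (1.34), Bcat2 (1.27) and Rhoc (1.22). They were lowest for Ly6a (-4.50), Igfbp6 (-3.97), Ube2c (-3.53), S100a8 (-3.52), S100a9 (-2.19), Gsn (-2.06), Tuba1a (-1.42) and Sik1 (-1.21). Of the UMIs in the control library, 1 barcode held 90 of 91 of Ly6a, all 63 of Igfbp6, 57 of 58 of Ube2c and 309 of 374 of Gsn. For Ly6a, Igfbp6 and Gsn it was the same barcode, the Ace-positive member without Lyz2. In the CD4-Cre library, 1 barcode held 133 of 177 of Ccl2 and 26 of 52 of Odc1. In 3 of the 16 genes, Bcat2, Tuba1a and Sik1, the 3 barcodes with most UMIs held less than 50% of the UMIs in both libraries. Bcat2, an enzyme of branched-chain amino acid breakdown, was present in 20 of 88 and 36 of 77 members, with a ratio of 1.27 (0.58 to 2.01). Sik1, a kinase gene of the immediate-early response, was lower within Ace-positive members, at -1.20 (-2.06 to -0.41), and Tuba1a, a tubulin gene, within Retnla-positive ones, at -1.68 (-2.43 to -0.97).

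**Figure D5:**
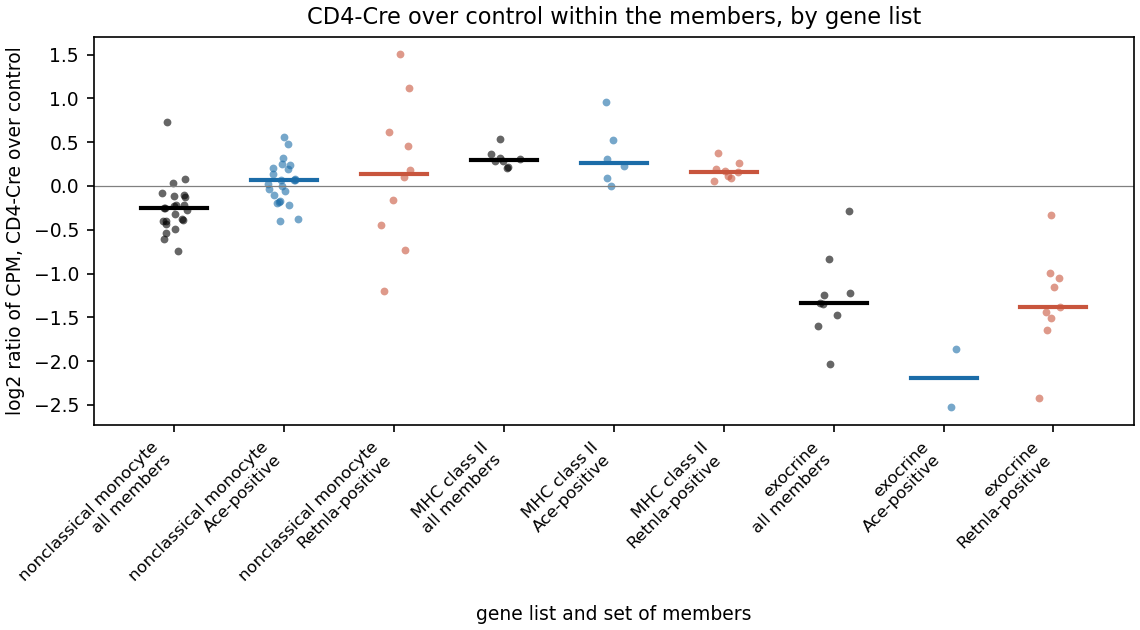
Log2 ratio of CPM, CD4-Cre over control (y axis), for genes of 3 lists in all members, Ace-positive members and Retnla-positive members (x axis); each point is 1 gene with at least 20 UMIs and bars are medians. The nonclassical monocyte median is -0.25 over all members and 0.07 in Ace-positive members, the MHC class II medians lie above 0 and the exocrine medians below -1.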

How the data were processed

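Single cells were profiled with a droplet kit that reads the 5′ ends of transcripts, in 4 mouse libraries. The deposited values are raw UMI counts per gene and barcode, made by the authors with Cell Ranger on mm10 per the submitters' processing notes, and written by software version 3.0.0 per the file headers. Names of barcodes and genes are the only other deposited content used.

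Barcodes with at least 500 genes and at most 10% mitochondrial UMIs were kept, and doublets were not removed. Members, gene lists (349 of 351 genes found in the features) and contrasts were chosen with earlier results of these data known. For each set and library, UMIs were added up across barcodes and given as CPM, with exact Poisson or conditional binomial 95% intervals for levels and ratios, Clopper-Pearson intervals for shares and Newcombe intervals for their differences. A sum of 0 was set to a floor of 3 counts over the set in ratios. Lists exclude the rule's genes and Lyz2. Genes with at least 20 UMIs over both sets in each library were tested against a 2-fold limit in both libraries. With 1 library in each group, no p-value was computed.

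Genes named were, beside the lists, the 15 highest and 15 lowest in members against the others (smaller ratio of the 2 libraries, at least 50 UMIs in each) and the 8 highest and 8 lowest between genotypes (50 or more UMIs where higher, 1 or more where lower, intervals apart). Neither ranking used genes of antigen receptors, haemoglobin, mitochondria, exocrine or islet cells. Other genes of the 3 sets were picked after their values were seen. Python 3.11.15, scanpy 1.11.5 and R 4.3.3 with edgeR 4.0.16 and DESeq2 1.42.0 were used, the last 2 for library sizes only, and the fold procedure was tested on simulated data. Values of a few listed genes are not reported here.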

Additional observations from a re-analysis of the deposited data

Results flagged for a closer look

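Several list medians had opposite signs in the 2 libraries, and those differences were not tested. In Ace-positive over Ace-zero members, the classical monocyte list had a median log2 ratio of -0.70 in the control library and 0.66 in the CD4-Cre library, and the chemokine and egress receptor list -0.52 and 0.74. In members over other Lyz2-positive barcodes, the B cell list had medians of 2.46 and -0.25, the ribonuclease A family -0.16 and 0.55, the lipid handling list -0.39 and 0.57 and the survival list 0.17 and -0.040. B cell UMIs sat unevenly among members: the barcode with the most held 28.6% of them in the control library and 36.5% in the CD4-Cre library.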

How the results depend on the processing

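No paired analysis was possible because each group has 1 library. The share difference between the libraries stayed negative in the 12 settings tried, from -0.968 to -0.536 points. Of the main values, 277 stayed within their error or within 1.5 times under the alternatives and 38 moved, and of values for single genes 2259 stayed, 248 moved and 24 changed sign. The cause of the changes was not tested. Removal of doublets, the limit to Ace, Ace-positive members with a Lyz2 UMI and the depth limit of 5000 UMIs were chosen after seeing the data.

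With members limited to those with an Ace UMI, 45 and 36 remained, the nonclassical monocyte medians over other Lyz2-positive barcodes were 3.43 and 3.65, the MHC class II medians -3.83 and -3.13, 523 genes were higher, and the nonclassical median between genotypes was 0.066. Cebpe then had ratios of -2.99 and -1.89 over the others, and between genotypes Rhoc had -1.62, Cd63 -1.84 and Odc1 -0.20. At Ace and Ear2 limits of 3 and 5 UMIs, Mmp19 was -0.27 and -0.12 between genotypes and Ccl2 -0.34 and -0.14, and at 5 Chil3 was -1.03 over the others in the control library. With members of at least 5 Lyz2 UMIs, Gsn was 0.46 and Igfbp6 0.42 between genotypes.

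The comparator changed the neutrophil genes. Against the classical monocyte profile alone, S100a8 was 3.43 and 0.49, and S100a9 4.18 and 2.57. Retnlg was 0.37 in the control library and Cebpe -0.020 in the CD4-Cre library, and 10 genes were lower. That comparator had only 12 and 16 barcodes, so fewer genes could be tested. Against the barcodes with the C1q genes, S100a8 was 5.85 and 2.64, S100a9 8.59 and 4.72, and in the control library Lcn2 was 1.03 and Retnlg 3.79, and 226 genes were lower.

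The MHC class II median over the others in the control library was -0.89 at an Ace and Ear2 limit of 1, -1.32 without C1q UMIs, -1.003 against classical monocytes, -1.07 against C1q barcodes, -1.43 with equal weight per barcode, -1.34 with edgeR's TMM and -1.32 with DESeq2's size factors. In the CD4-Cre library it was -1.03 at a limit of 3, -1.08 without C1q UMIs, -1.05 in members without UMIs of other lineages, -0.32 against classical monocytes, -1.32 with equal weight, -1.07 with TMM and -1.04 with size factors. Between genotypes it was 0.16 at a limit of 1 and 0.19 in members without UMIs of other lineages. The nonclassical median over the others was 1.45 in the control library without UMIs of other lineages and 2.64 in the CD4-Cre library with equal weight.

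Counts of genes followed the minimum, which also sets how many genes are tested, so these counts cannot be read as shares. At 50 UMIs, 93 genes were higher and 182 lower in members, and 154 higher and 123 lower in Ace-positive members. At 5 UMIs, 291 were higher in members, and 676 higher and 410 lower in Ace-positive members. A pseudocount of 10 CPM gave 84 higher and 164 lower, and members of at least 5000 UMIs gave 230 higher in Ace-positive ones. Depth limits single genes: a count of 0 over the members allows up to 4.55 and 4.58 CPM.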
